A study of Homo sapiens with 12 samples.

Results

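Receptor tyrosine kinase genes outside the EGFR family were examined, 10 of the 54261 genes of the total RNA count table: RET, IGF1R, INSR, MET, MST1R, AXL, FGFR2, FGFR3, FGFR4 and EPHA2. They were chosen by name with earlier results of these data known, and all 10 had enough counts to be tested. Total RNA was compared between HCT116oxR and its parent HCT116, a human colorectal carcinoma line, with 3 libraries of each line and 11950069 to 13558077 counts per library. HCT116oxR had been derived by growth in oxaliplatin, a DNA-damaging platinum drug, from 0.1 up to 5 µmol/L, the last dose being held for 1 year; the parental cells are labelled as its control. The labels number 3 samples of each line without saying whether they were grown separately. Only 1 resistant line was studied, so p-values cover the spread between these samples, which may be technical, and not that among independently derived lines. No label says whether oxaliplatin was present at harvest. Small RNA libraries of the same lines, 3 of each, were used for miRNAs.

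Receptor tyrosine kinases are single-pass membrane proteins that bind a ligand outside the cell, pair up and phosphorylate each other on tyrosines. Adaptor proteins then dock on the phosphotyrosines and pass the signal to the RAS-MAPK and PI3K-AKT pathways, while phosphatases, ubiquitin ligases and inhibitors of the Sprouty type limit it. In colorectal epithelium MET, the insulin-like growth factor receptor and the ephrin receptors are known for roles in growth, survival and cell positioning. Protein and phosphorylation were not measured here.

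In HCT116oxR 7 of the receptors rose, INSR and EPHA2 fell and MST1R did not pass the test. The 7 of 10 higher stand against a background of 22.3% of all 17511 tested genes, and the 2 of 10 lower against 21.8% (edgeR quasi-likelihood test, Benjamini-Hochberg adjusted p under 0.05 over all tested genes). In either direction 9 of 10 were called, where 44.1% of all tested genes were. Because the receptors were chosen with earlier results known, these shares describe them and are no test of the group. The median log2 fold change of HCT116oxR over parental cells was 0.48 for the 10 receptors and -0.00057 for all tested genes. All 3 HCT116oxR libraries lay above all 3 parental libraries for the 7 risen receptors, as they did for 25.7% of tested genes, and below them for INSR and EPHA2, as for 24.8%. The rises were at most 3.27-fold and the falls at most 1.21-fold.

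**Figure D1:**
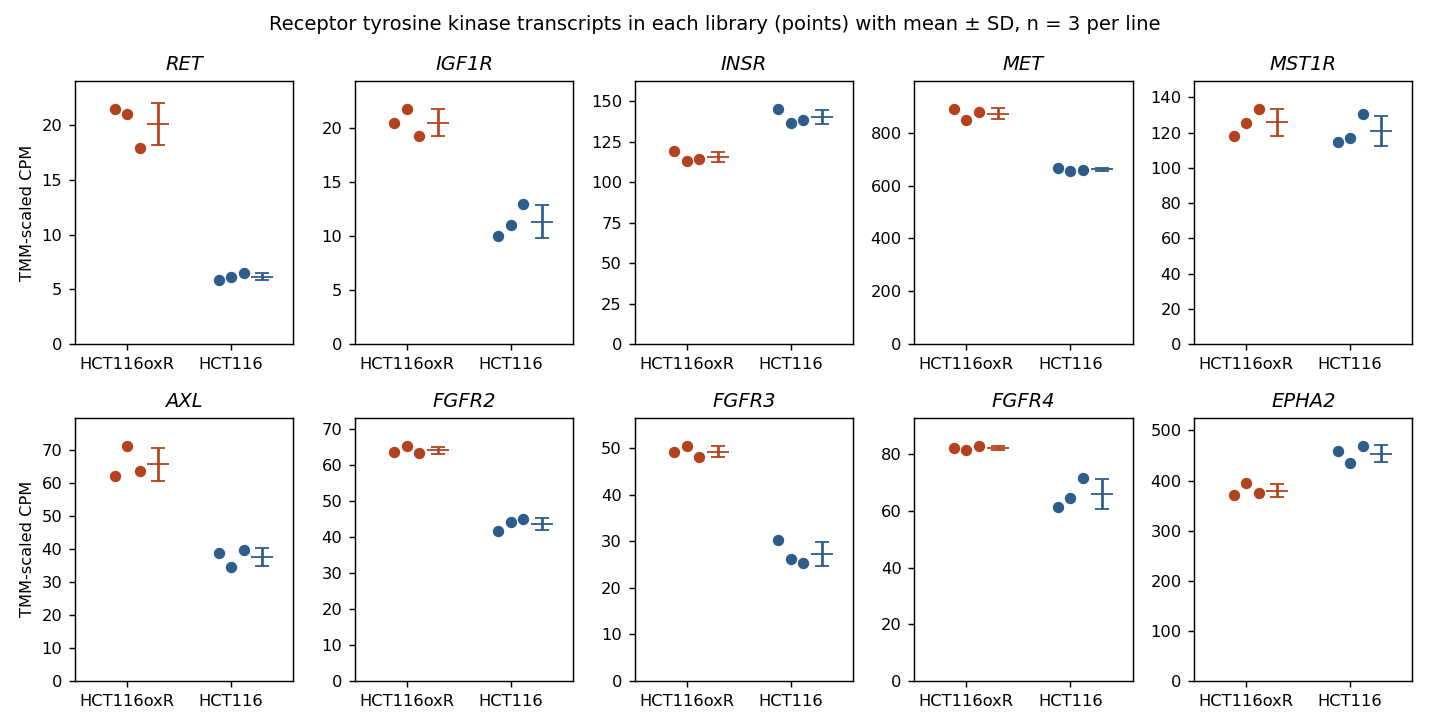
Levels of the 10 receptor transcripts, in TMM-scaled CPM (counts scaled to a common library total, y axis from 0), in each HCT116oxR (left) and parental HCT116 (right) library, with the mean ± SD of 3 libraries beside the points. The lines do not overlap for RET, which averaged 20.1 in HCT116oxR and 6.17 in parental cells, and overlap for MST1R.

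The table of annotated starts from RefSeq (GRCh38.p14) matched all 10 receptors. The 250 bases upstream of the outermost start are shown for RET and IGF1R, the receptors with the highest log2 fold changes. The GC box, GGGCGG or on the other strand CCGCCC, is set in capitals. The RET window is chr10:43076819-43077068 on the plus strand and the IGF1R window chr15:98648289-98648538 on the plus strand.
RET: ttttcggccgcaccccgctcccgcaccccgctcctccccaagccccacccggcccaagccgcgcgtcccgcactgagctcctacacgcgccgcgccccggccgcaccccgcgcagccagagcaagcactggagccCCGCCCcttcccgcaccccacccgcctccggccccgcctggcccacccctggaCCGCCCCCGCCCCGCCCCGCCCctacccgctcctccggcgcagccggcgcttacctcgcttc
IGF1R: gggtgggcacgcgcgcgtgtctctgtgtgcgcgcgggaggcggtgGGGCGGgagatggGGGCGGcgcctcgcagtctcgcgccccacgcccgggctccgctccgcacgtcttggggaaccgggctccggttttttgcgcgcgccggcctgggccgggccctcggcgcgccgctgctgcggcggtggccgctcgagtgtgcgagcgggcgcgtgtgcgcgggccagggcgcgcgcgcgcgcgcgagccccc

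The RET window held 5 matches, some of which overlap by a single base, and the IGF1R window held 2 that do not overlap. Receptors that did not rise held the motif too. The outermost windows of INSR and MST1R held 4 matches each and that of EPHA2 held 1. RefSeq lists further starts for RET, AXL, FGFR2 and FGFR4, 17 windows in all for the 10 receptors. Of these, 12 held at least 1 match, among them the outermost window of each receptor, and G and C content was 42.8% to 86.8%. Over all 35116 windows of that length in the table, alternative starts included, 42.6% held the motif and the median G and C content was 58.0%. The matches are a description of the sequence, and no binding was measured.

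RET, the receptor of the GDNF family ligands, had the highest log2 fold change of the 10. Its gene (NCBI gene 5979) spans chromosome 10 from 43077069 to 43130351 in GRCh38. RET stood at 21.5, 21.0 and 17.9 CPM in the HCT116oxR libraries, against 5.89, 6.14 and 6.47 CPM in the parental libraries. These values rested on 291, 282 and 220 counts in HCT116oxR and on 78, 73 and 80 counts in parental cells. Every HCT116oxR library was thus well above the parental ones, and the change was 3.27-fold (log2 fold change 1.71 ± 0.14, SE, adjusted p = 1.18e-20). It exceeded the change of 97.99% of all tested genes.

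Few counts were found for GDNF and for the co-receptors of RET. RET is activated by a GDNF family ligand bound to a co-receptor of the GFRA family, which is anchored in the outer membrane leaflet. GDNF had 0 counts in every library, which allows up to 0.0765 CPM over the HCT116oxR libraries and 0.0796 CPM over the parental ones (3 counts of each total). GFRA4 was also at 0, and GFRA1 had 1 count over the HCT116oxR libraries and 0 over the parental ones. GFRA2 had 12 over the HCT116oxR libraries (0, 8 and 4) and 0 over the parental ones. GFRA3, the co-receptor of artemin, had 21 counts over the HCT116oxR libraries (2, 4 and 15) and 9 over the parental ones (2, 3 and 4). Most of its HCT116oxR counts thus came from replicate 3. These co-receptors were too low to be tested and, with GDNF, are named after their values were seen. Of the family's other ligands, ARTN, which encodes artemin, fell to 9.89 ± 0.367 CPM in HCT116oxR, against 15.8 ± 0.902 CPM in parental cells (SD, n = 3 each, log2 fold change -0.67 ± 0.14, adjusted p = 1.74e-05). NRTN, which encodes neurturin, was at 5.01 ± 0.776 CPM in HCT116oxR and 5.06 ± 1.40 CPM in parental cells (-0.0061 ± 0.22, adjusted p = 0.987), a difference whose sign changed with the setting. Both were named after their values were seen. PSPN, the gene of persephin, was at 1.503 ± 0.739 CPM in HCT116oxR and 2.76 ± 0.320 CPM in parental cells (-0.88 ± 0.35, adjusted p = 0.0328). Its call was lost in DESeq2 (-0.88), without HCT116oxR replicate 1 (-0.58) or 2 (-0.85) and without parental replicate 2 (-0.79) or 3 (-0.90).

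The closely related receptors IGF1R and INSR moved in opposite directions. IGF1R binds the insulin-like growth factors and INSR binds insulin, and both signal through the IRS adaptors. IGF1R (NCBI gene 3480, chromosome 15, 98648539 to 98964530) stood at 20.4, 21.7 and 19.2 CPM in HCT116oxR, against 9.96, 11.02 and 12.9 CPM in parental cells. The lines did not overlap, and the change was 1.81-fold (log2 fold change 0.86 ± 0.13, adjusted p = 4.73e-09). INSR (NCBI gene 3643, chromosome 19, 7112265 to 7294414) stood at 119, 113 and 115 CPM in HCT116oxR, against 145, 137 and 139 CPM in parental cells. It fell 1.21-fold (-0.28 ± 0.05, adjusted p = 3.56e-07), again without overlap.

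The balance between the pair therefore differed, with every HCT116oxR library above every parental one. The log2 ratio of IGF1R over INSR was -2.54, -2.39 and -2.57 in HCT116oxR and -3.87, -3.63 and -3.42 in parental cells, a difference of 1.14 (exact permutation test, 2-sided, p = 0.10, adjusted p = 0.10 over 5 ratios). With 3 libraries against 3, 0.10 is the smallest p that this test can give. The ratios are not corrected for transcript length, so only their difference between the lines can be read.

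Few ligand counts were found for these receptors. INS and IGF1 had 0 counts in every library, with the limits given for GDNF, and IGF2 had 3 counts over the HCT116oxR libraries and 0 over the parental ones (all named after their values were seen). IGFBP2, which encodes a binding protein that holds insulin-like growth factors, rose to 86.7 ± 6.20 CPM in HCT116oxR, against 50.2 ± 3.60 CPM in parental cells (1.73-fold, 0.79 ± 0.06, adjusted p = 1.49e-21). The docking adaptor IRS1 rose 3.43-fold, to 290.1 ± 2.05 CPM in HCT116oxR, against 84.6 ± 2.41 CPM in parental cells (1.78 ± 0.04, adjusted p = 1.52e-70). Its relative IRS2, named after its values were seen, fell to 31.1 ± 2.20 CPM in HCT116oxR, against 45.5 ± 1.29 CPM in parental cells (-0.55 ± 0.08, adjusted p = 5.87e-09).

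MET, the receptor of hepatocyte growth factor, rose while its relative MST1R (also called RON), the receptor of macrophage-stimulating protein, did not pass. MET (NCBI gene 4233, chromosome 7, 116672196 to 116798377) stood at 889, 849 and 877 CPM in HCT116oxR, against 668, 655 and 659.96 CPM in parental cells. It had 7792 counts or more in each library, and although the change was only 1.32-fold it was well resolved (log2 fold change 0.40 ± 0.03, adjusted p = 6.96e-25). MST1R (NCBI gene 4486, chromosome 3, 49887002 to 49903873) stood at 118, 126 and 133 CPM in HCT116oxR, against 115, 117 and 131 CPM in parental cells. The lines overlapped, and the log2 fold change was 0.06 with a 95% interval of -0.04 to 0.16 (adjusted p = 0.383). The log2 ratio of MET over MST1R was 0.34 higher in HCT116oxR, at 2.80 ± 0.101 against 2.45 ± 0.106 in parental cells (exact permutation p = 0.10, the smallest possible).

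HGF, the ligand of MET, had 0 counts over the HCT116oxR libraries and 2 over the parental ones (named after its values were seen). MST1, the gene of macrophage-stimulating protein, also named after its values were seen, was at 4.51 ± 0.144 CPM in HCT116oxR and 5.39 ± 1.42 CPM in parental cells (adjusted p = 0.355). Among the membrane partners of MET, PLXNB2, a plexin B receptor for semaphorins, fell to 604 ± 18.1 CPM in HCT116oxR, against 1075 ± 37.4 CPM in parental cells (-0.83 ± 0.03, adjusted p = 5.27e-53). PLXNB1, named after its values were seen, rose to 158 ± 2.75 CPM in HCT116oxR, against 129 ± 3.23 CPM in parental cells (0.29 ± 0.05, adjusted p = 2.73e-08). CD44, a hyaluronan receptor with splice forms that act as a MET co-receptor, had 827 ± 11.999 CPM in HCT116oxR and 773 ± 12.4 CPM in parental cells, a 1.07-fold rise (adjusted p = 0.00322). ST14, which encodes matriptase, a protease that can activate pro-HGF, rose 1.49-fold to 231 ± 11.5 CPM in HCT116oxR, against 155 ± 3.32 CPM in parental cells (0.58 ± 0.04, adjusted p = 2.69e-25).

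AXL, a receptor of the TAM family that binds GAS6, rose 1.74-fold. Its gene (NCBI gene 558) spans chromosome 19 from 41219223 to 41261766. AXL stood at 62.0, 71.2 and 63.5 CPM in HCT116oxR, against 38.6, 34.5 and 39.7 CPM in parental cells. The 2 sets were clearly apart (log2 fold change 0.80 ± 0.07, adjusted p = 1.08e-18). GAS6 was at 80.5 ± 2.97 CPM in HCT116oxR and 71.6 ± 6.78 CPM in parental cells (0.17 ± 0.06, adjusted p = 0.0150), and that call was lost without HCT116oxR replicate 1 (0.14), without parental replicate 1 (0.09) and in DESeq2 (0.17). PROS1, which encodes protein S, a ligand of the other TAM receptors, was at 18.1 ± 0.886 CPM in HCT116oxR and 17.98 ± 0.543 CPM in parental cells (adjusted p = 0.951).

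The 3 fibroblast growth factor receptors rose by unequal amounts, FGFR3 by 1.81-fold, FGFR2 by 1.47-fold and FGFR4 by 1.25-fold. FGFR3 (NCBI gene 2261, chromosome 4, 1793293 to 1808867) stood at 49.1, 50.4 and 48.1 CPM in HCT116oxR, against 30.2, 26.1 and 25.3 CPM in parental cells (log2 fold change 0.85 ± 0.08, adjusted p = 7.55e-17). FGFR2 (NCBI gene 2263, chromosome 10, 121478330 to 121598458) stood at 63.6, 65.4 and 63.4 CPM in HCT116oxR, against 41.7, 44.3 and 44.9 CPM in parental cells (0.56 ± 0.07, adjusted p = 9.42e-12). FGFR4 (NCBI gene 2264, chromosome 5, 177086915 to 177098144) stood at 82.2, 81.3 and 82.9 CPM in HCT116oxR, against 61.3, 64.6 and 71.6 CPM in parental cells (0.32 ± 0.06, adjusted p = 3.72e-06). In none of the 3 did the lines overlap, and the HCT116oxR libraries were closer together than the parental ones for each.

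Within the family the log2 ratio of FGFR3 over FGFR4 was 0.54 higher in HCT116oxR, at -0.74 ± 0.0489 against -1.28 ± 0.241 in parental cells. FGFR2 over FGFR4 was 0.23 higher, at -0.36 ± 0.0378 in HCT116oxR against -0.59 ± 0.0721 in parental cells. FGFR2 over FGFR3 was 0.30 lower, at 0.38 ± 0.0150 in HCT116oxR against 0.69 ± 0.192 in parental cells. Each of these 3 had an exact permutation p of 0.10, the smallest possible, and an adjusted p of 0.10.

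Of the ligands of these receptors, FGF9, which binds FGFR3 and FGFR2 isoforms, rose 2.26-fold to 20.8 ± 1.13 CPM in HCT116oxR, against 9.22 ± 1.41 CPM in parental cells (1.18 ± 0.13, adjusted p = 9.48e-14). FGF19, an enterokine that signals mainly through FGFR4, rose 1.47-fold to 54.4 ± 3.34 CPM in HCT116oxR, against 37.1 ± 3.24 CPM in parental cells (0.55 ± 0.08, adjusted p = 4.50e-10). FGF17 fell to 4.86 ± 0.910 CPM in HCT116oxR, against 7.46 ± 0.894 CPM in parental cells (-0.62 ± 0.20, adjusted p = 0.00649), a call lost without HCT116oxR replicate 2 (-0.47). FGF2, FGF8 and FGF18 averaged under 2 CPM in both lines and did not pass (log2 fold changes 0.01, 0.49 and -0.34, adjusted p = 0.988, 0.348 and 0.555), though FGF8 passed without parental replicate 1 (1.39). FGF2 and FGF18 changed sign without single libraries, and these 4 were named after their values were seen. KLB, which encodes beta-klotho, the co-receptor that FGF19 uses with FGFR4, had 0 counts in every library, and KL had 0 counts over the HCT116oxR libraries and 1 over the parental ones (both named after their values were seen). SDC4, which encodes syndecan-4, a heparan sulfate proteoglycan that helps fibroblast growth factors bind, fell 1.89-fold to 147 ± 9.21 CPM in HCT116oxR, against 279 ± 8.06 CPM in parental cells (-0.92 ± 0.04, adjusted p = 4.98e-43).

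EPHA2, a receptor for ephrin-A ligands on neighbouring cells, fell 1.19-fold. Its gene (NCBI gene 1969) spans chromosome 1 from 16124337 to 16156069. EPHA2 stood at 371, 394 and 375 CPM in HCT116oxR, against 458, 435 and 469 CPM in parental cells (log2 fold change -0.26 ± 0.03, adjusted p = 4.84e-11). The lines did not overlap. Its main ligand gene EFNA1, named after its values were seen, rose to 17.6 ± 0.855 CPM in HCT116oxR, against 11.1 ± 2.39 CPM in parental cells (0.66 ± 0.13, adjusted p = 1.44e-05). EFNA2 rose 1.81-fold to 11.4 ± 0.419 CPM in HCT116oxR, against 6.25 ± 0.546 CPM in parental cells (adjusted p = 4.56e-06). EFNA5 fell 3.72-fold to 2.65 ± 0.712 CPM in HCT116oxR, against 9.82 ± 0.321 CPM in parental cells (-1.90 ± 0.21, adjusted p = 4.53e-14).

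**Figure D2:**
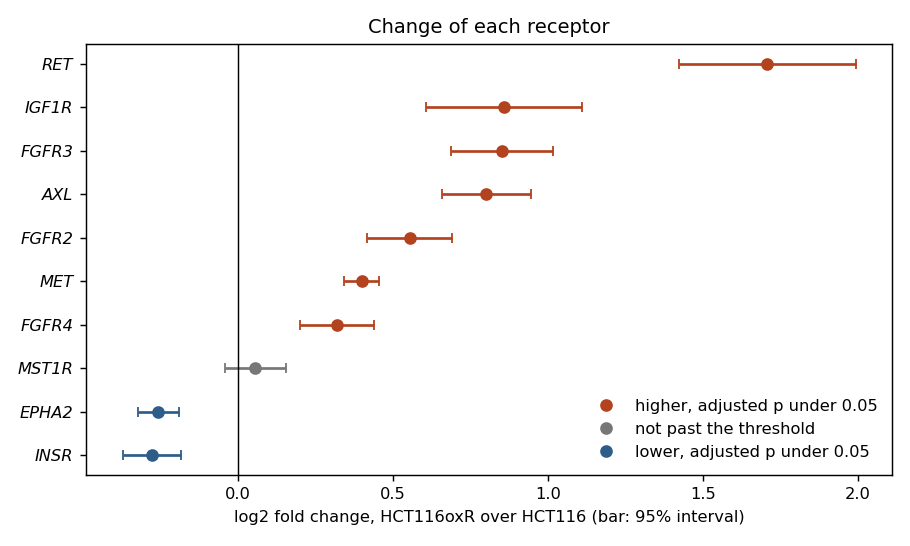
Log2 fold change of HCT116oxR over parental cells (x axis) for each receptor, with its 95% interval from the edgeR fit. RET is highest at 1.71, IGF1R, FGFR3 and AXL lie together between 0.80 and 0.86, and INSR is lowest at -0.28.

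Ordered by their change, RET stood apart, with a 95% interval of 1.42 to 1.99 that lay above every other interval. The intervals of IGF1R (0.61 to 1.11), FGFR3 (0.69 to 1.02) and AXL (0.66 to 0.95) overlapped, and that of FGFR2 (0.42 to 0.69) reached into them. Those of MET (0.34 to 0.46) and FGFR4 (0.20 to 0.44) overlapped with each other and with that of FGFR2. INSR (-0.37 to -0.18) and EPHA2 (-0.32 to -0.19) could not be ordered.

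The other human receptor tyrosine kinases were read from the same fit. Of 48 listed, 23 had enough counts to be tested, 11 rose and 3 fell, with a median log2 fold change of 0.16. This list includes the EGFR family, of which ERBB2 and ERBB3 were among those that rose. Among all 17511 tested genes 22.3% rose and 21.8% fell. The number of these kinases called, 14, was 9 in DESeq2, 9 without HCT116oxR replicate 3 and 8 without parental replicate 1. EPHB6, an ephrin receptor without kinase activity, rose 2.68-fold to 22.2 ± 2.13 CPM in HCT116oxR, against 8.29 ± 0.888 CPM in parental cells (1.42 ± 0.13, adjusted p = 6.01e-18). EPHB3, an ephrin receptor that positions cells in intestinal crypts, rose 1.69-fold (0.76 ± 0.14, adjusted p = 4.44e-06). PTK7, a Wnt co-receptor without kinase activity, rose 1.18-fold to 301 ± 5.92 CPM in HCT116oxR, against 255 ± 1.94 CPM in parental cells (adjusted p = 1.08e-08). FGFR1, the remaining receptor kinase of the fibroblast growth factor family, went against FGFR2, FGFR3 and FGFR4 and fell 1.42-fold, to 138 ± 4.27 CPM in HCT116oxR, against 197 ± 9.66 CPM in parental cells (-0.51 ± 0.04, adjusted p = 2.72e-20). EPHB4 (0.11, adjusted p = 0.0441) and the collagen receptor gene DDR2 (-0.64, adjusted p = 0.0373) were called, but neither call held when single libraries were left out. EPHB4 then stood at 0.08 to 0.14, losing its call without HCT116oxR replicate 2 or 3 or parental replicate 1 or 2. Both calls were also lost in DESeq2 (0.11 for EPHB4, -0.65 for DDR2) and with no filter (0.10 for EPHB4, -0.65 for DDR2). DDR2 stood at -0.72 to -0.59, losing its call without any single library other than HCT116oxR replicate 1.

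**Figure D3:**
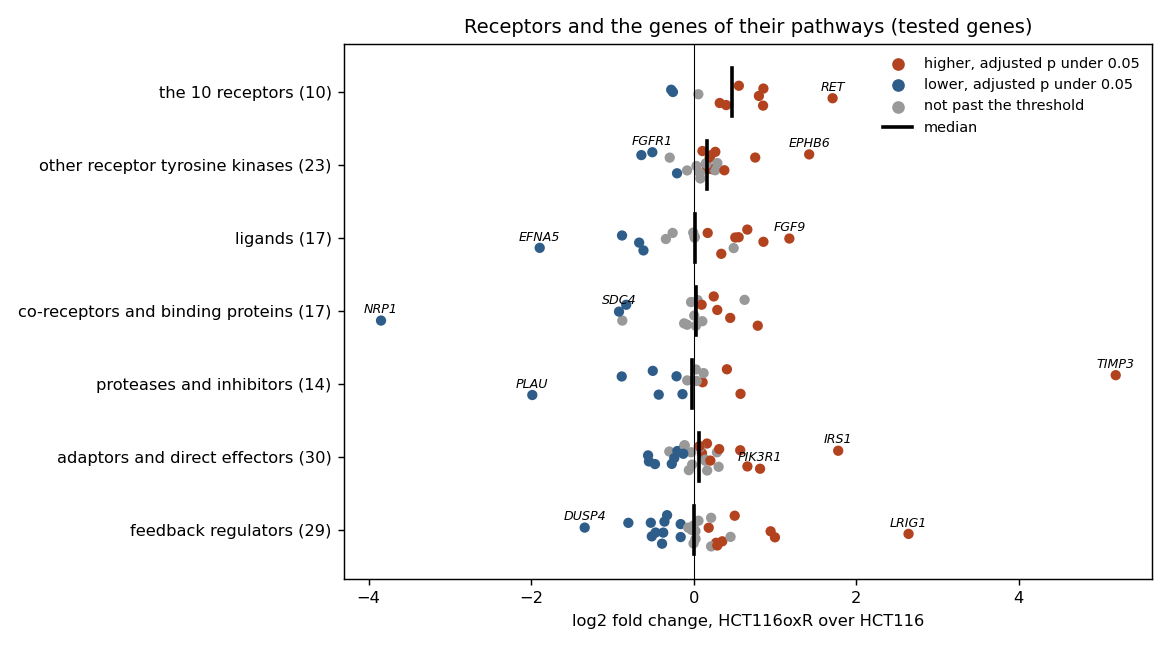
Log2 fold change of HCT116oxR over parental cells (x axis) for the tested genes of each list (rows, number tested in brackets), coloured by call, with the list median as a black bar. The median is 0.48 for the 10 receptors and between -0.03 and 0.07 for ligands, co-receptors, proteases, adaptors and feedback regulators.

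The pathway lists moved both ways, with medians near that of all genes. Among all tested genes 22.3% rose and 21.8% fell, 44.1% in either direction. Each pathway list had a larger share called than that 44.1%. The lists were chosen with earlier results of these data known, so these shares are a description only. Of 34 ligands, 17 were tested, 7 rose and 4 fell (median log2 fold change 0.01). Of 30 co-receptors and binding proteins, 17 were tested, 5 rose and 3 fell (median 0.03). Among those that fell was NRP1, which encodes neuropilin-1, a co-receptor for semaphorins and vascular endothelial growth factor that also binds other growth factors. It had 5.38 ± 0.581 CPM in HCT116oxR and 77.9 ± 1.67 CPM in parental cells, a 14.4-fold fall (-3.85 ± 0.10, adjusted p = 6.18e-67).

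Of 17 proteases and their inhibitors, 14 were tested, 4 rose and 6 fell (median -0.03). PLAU, the gene of urokinase, which activates plasminogen and can activate pro-HGF, fell 3.96-fold to 95.3 ± 1.42 CPM in HCT116oxR, against 378 ± 7.81 CPM in parental cells (adjusted p = 2.16e-79). TIMP3, an inhibitor of metalloproteinases that shed receptor ectodomains, had 8.15 ± 1.26 CPM in HCT116oxR and 0.219 ± 0.204 CPM in parental cells (5.19 ± 0.37, adjusted p = 2.43e-25), and its few parental counts leave the size of that rise uncertain. TIMP3 lies within SYN3, and reads of the pair may not be told apart. PCSK6, a proprotein convertase gene, fell 1.85-fold (adjusted p = 5.87e-05). The sheddase gene ADAM10 was at 201 ± 2.54 CPM in HCT116oxR and 187 ± 11.8 CPM in parental cells (0.11 ± 0.04, adjusted p = 0.0243), a call that was lost without HCT116oxR replicate 3 (0.10), without parental replicate 3 (0.06) and in DESeq2 (0.11).

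Of 35 adaptors and direct effectors, 30 were tested, 9 rose and 8 fell (median 0.07). Beside IRS1, PIK3R1, the regulatory subunit p85 alpha of PI3K, rose 1.76-fold to 122 ± 2.63 CPM in HCT116oxR, against 69.4 ± 0.725 CPM in parental cells (0.82 ± 0.05, adjusted p = 6.73e-28). SHC1, an adaptor that links phosphorylated receptors to RAS, rose 1.58-fold to 216 ± 9.43 CPM in HCT116oxR, against 137 ± 1.70 CPM in parental cells (0.66 ± 0.04, adjusted p = 6.22e-29). GRB14, an adaptor that inhibits the insulin receptor, rose 1.49-fold (0.57 ± 0.15, adjusted p = 0.00115). CRKL rose 1.15-fold (0.20 ± 0.04, adjusted p = 1.11e-05). PTPN11, the gene of the phosphatase SHP2 that relays receptor signals, had 628 ± 17.7 CPM in HCT116oxR and 597 ± 1.63 CPM in parental cells (0.07 ± 0.03, adjusted p = 0.0421), and its call was lost in DESeq2, with no filter and without any single library other than HCT116oxR replicate 2 (0.05 to 0.07 where lost).

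Of 31 feedback regulators, 29 were tested, 8 rose and 11 fell (median -0.0025). LRIG1, a transmembrane protein known to promote the degradation of receptors such as EGFR and MET, rose 6.25-fold to 18.2 ± 2.26 CPM in HCT116oxR, against 2.93 ± 0.676 CPM in parental cells (2.64 ± 0.17, adjusted p = 2.77e-28). IL17RD, also called SEF, an inhibitor of fibroblast growth factor signalling, had 120.1 ± 4.201 CPM in HCT116oxR and 60.0 ± 1.11 CPM in parental cells (1.00 ± 0.06, adjusted p = 8.70e-34). SOCS3, an inhibitor of cytokine and insulin receptor signalling, rose 1.93-fold (0.95 ± 0.09, adjusted p = 2.80e-17). ERRFI1, which encodes the EGFR inhibitor MIG6, rose 1.21-fold (0.28 ± 0.03, adjusted p = 6.94e-14), and the receptor phosphatase gene PTPRF fell by 0.16 on the log2 scale (SE 0.03, adjusted p = 2.04e-06). The ERK phosphatase genes DUSP4 and DUSP5 fell and DUSP6 rose, the last pair named after their values were seen. DUSP4 fell 2.53-fold to 267 ± 4.68 CPM in HCT116oxR, against 677 ± 8.66 CPM in parental cells (adjusted p = 1.04e-70). DUSP5 fell 1.44-fold to 206 ± 4.35 CPM in HCT116oxR, against 297 ± 6.86 CPM in parental cells (adjusted p = 8.62e-26), and DUSP6 rose 1.42-fold to 492 ± 1.88 CPM in HCT116oxR, against 347 ± 9.23 CPM in parental cells (adjusted p = 1.17e-28).

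The receptors lie apart on the genome, and their changes were set beside those of the tested protein-coding genes within 5 Mb. The medians of these neighbours were between -0.14 (167 genes around AXL) and 0.13 (19 genes around RET). RET was above 94.7% of its 19 neighbours, and IGF1R above 93.8% of 16. Among the neighbours of RET 9 rose and 5 fell, where 22.3% and 21.8% of all tested genes did. Their median was the highest of the 10 sets, and a change of the region as a whole was not tested. AXL was above 97.0% of its neighbours and FGFR3 above all 48 of its own. INSR was above 20.9% of 187 neighbours and EPHA2 above 21.2% of 66. IGF1R overlaps the antisense lncRNA gene IRAIN, which had 2 counts over the HCT116oxR libraries and 0 over the parental ones, and INSR, MET, AXL and EPHA2 also overlap annotated noncoding genes or pseudogenes. The use of strand in counting is not given in the sources used here, so reads from such partners may be among the receptors' counts and cannot be told apart from them.

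The genes with the pattern most like RET were sought by the smallest root mean square difference of log2 CPM, centred over the 6 total RNA libraries. They were RSPO1 (0.0727), NAB2 (0.0878) and MEIS2 (0.0909). RSPO1, which encodes an R-spondin that amplifies Wnt signalling, had 14, 14 and 12 counts in HCT116oxR and 0 in each parental library, at least 12.8-fold higher against a floor of 3 counts over the parental libraries, and its place depends on the 0.5 CPM added before the log. NAB2, a corepressor of EGR transcription factors, stood at 92.6 ± 0.835 CPM in HCT116oxR and 28.1 ± 2.12 CPM in parental cells. MEIS2, a homeobox gene, stood at 31.5 ± 1.28 CPM in HCT116oxR and 10.7 ± 0.194 CPM in parental cells. For IGF1R they were RAC3 (0.0425), CACNA2D2 (0.0544) and CYC1 (0.0611), which rose 1.86-fold, 1.70-fold and 1.71-fold.

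The identity of the lines was read from marker lists. Of 9 colorectal epithelial markers, 7 were tested, 3 rose and 1 fell. All 9 together, tested or not, held 3833 to 3899 CPM in HCT116oxR and 3192 to 3285 CPM in parental cells. The untested markers were the intestinal genes CDX1, with 2 counts over the HCT116oxR libraries and 0 over the parental ones, and VIL1, with 2 counts over each line, so neither was more than marginally detected. KRT8 and KRT18, the keratins of simple epithelium, rose 1.34-fold and 1.44-fold, EPCAM rose 1.19-fold and KRT19 fell 1.09-fold. Of 14 markers of blood, endothelial and stromal cells, 5 were tested, none rose and 2 fell, CD68 and COL1A1. All 14 together, tested or not, held 58.7 to 67.4 CPM in HCT116oxR and 72.0 to 86.2 CPM in parental cells. PTPRC and CD3E, which define leukocytes and T cells, had 0 counts in every library. In RNA of whole cultures, fewer cells of a type and less RNA per cell cannot be told apart.

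The small RNA libraries gave a second readout of the same lines. From general knowledge, 24 miRNAs described as regulators of MET, AXL, IGF1R, INSR, FGFR3 or EPHA2 were listed, 22 were tested, and RefSeq held the mature sequence of 21 of these. Those the results turn on are printed 5′ to 3′ with the seed, bases 2 to 8, which pairs with a target, in capitals. The first group, described for IGF1R and in part INSR, shares the let-7 seed. The next, described for FGFR3 and, except miR-99b-5p, for IGF1R, shares the miR-99 seed. The pair miR-145-5p and miR-143-3p, described for IGF1R, have different seeds, the pair miR-34a-5p and miR-449a, described for MET, share one, and miR-200a-3p and miR-141-3p, described for EPHA2, share another.
let-7i-5p: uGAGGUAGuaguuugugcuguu
let-7f-5p: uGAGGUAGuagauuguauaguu
let-7e-5p: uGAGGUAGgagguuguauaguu
miR-99b-5p: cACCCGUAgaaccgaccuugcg
miR-99a-5p: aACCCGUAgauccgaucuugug
miR-100-5p: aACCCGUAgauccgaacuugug
miR-145-5p: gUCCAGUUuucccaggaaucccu
miR-143-3p: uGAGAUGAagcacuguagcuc
miR-34a-5p: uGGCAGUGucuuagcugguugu
miR-449a: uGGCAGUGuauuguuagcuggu
miR-200a-3p: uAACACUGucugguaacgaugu
miR-141-3p: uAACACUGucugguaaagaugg

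Of the 22 tested, 8 rose and 7 fell, against a background of 23.5% higher and 21.2% lower among the 975 miRNAs tested (edgeR quasi-likelihood test, adjusted over all miRNAs). Same-line small RNA libraries differed more in HCT116oxR, at 26.1 to 86.1 in chi-square per degree of freedom (highest between replicates 1 and 3), than in parental cells, at 6.34 to 11.9. Over all miRNAs 436 were called, against 445 without HCT116oxR replicate 1, 367 without replicate 2 and 420 without replicate 3. The median log2 fold change was -0.02 for the list and 0.01 for all tested miRNAs. The let-7 and miR-200a seed groups each held miRNAs that rose and miRNAs that fell. In the miR-34 group miR-34a-5p and miR-449a fell. Its member miR-34c-5p, the one tested miRNA without a RefSeq sequence here, rose.

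Among the let-7 miRNAs, let-7i-5p fell 2.19-fold to 21928 ± 1804 CPM in HCT116oxR, against 47966 ± 1004 CPM in parental cells (log2 fold change -1.13 ± 0.06, adjusted p = 1.45e-08). let-7f-5p fell to 13928 ± 810 CPM in HCT116oxR, against 20851 ± 510 CPM in parental cells (-0.58 ± 0.05, adjusted p = 1.35e-06). let-7e-5p rose 1.35-fold to 830 ± 6.07 CPM in HCT116oxR, against 614 ± 14.4 CPM in parental cells (0.44 ± 0.05, adjusted p = 1.69e-05). let-7a-5p (-0.11, adjusted p = 0.0492) and let-7d-5p (-0.20, adjusted p = 0.0123) were called lower, but let-7a-5p lost its call without any single library other than HCT116oxR replicate 3 (-0.07 to -0.11 where lost) and let-7d-5p without HCT116oxR replicate 1 (-0.13) or 2 (-0.17) and parental replicate 1 (-0.19) or 3 (-0.17). let-7a-5p also lost its call in DESeq2 (-0.12), with RLE factors (-0.12) and with no filter (-0.08), and let-7d-5p with no filter (-0.17). The 9 tested miRNAs with this seed summed to 71726 ± 4334 CPM in HCT116oxR and 106995 ± 2064 CPM in parental cells (exact permutation p = 0.10, the smallest possible). Near-identical let-7 miRNAs may share reads.

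All 3 miRNAs of the miR-99 seed rose. miR-99b-5p rose 1.69-fold to 4374 ± 116 CPM in HCT116oxR, against 2589 ± 19.1 CPM in parental cells (adjusted p = 6.30e-08), miR-99a-5p 1.33-fold (adjusted p = 3.27e-04) and miR-100-5p 1.28-fold, to 58992 ± 2371 CPM in HCT116oxR, against 46128 ± 504 CPM in parental cells (adjusted p = 2.81e-05). FGFR3, for which all 3 have been described as negative regulators, was higher too, as was IGF1R, for which miR-99a-5p and miR-100-5p have been described. Other listed pairs went both ways. The let-7 sum was lower, while IGF1R rose and INSR fell. miR-34a-5p, described for MET and AXL, was lower, while both receptors rose, and miR-449a, described for MET, was lower too. miR-145-5p and miR-143-3p, described for IGF1R, and miR-34c-5p, described for MET, were higher, as were these receptors. Of the miRNAs described for EPHA2, miR-141-3p was lower, as was EPHA2, and miR-200a-3p was higher. None of these relations was tested. miR-99b and let-7e, both higher, lie on chromosome 19 with 153 bases between their mature forms. miR-145-5p rose 2.45-fold to 232 ± 13.8 CPM in HCT116oxR, against 94.997 ± 10.5 CPM in parental cells (adjusted p = 1.55e-07). miR-143-3p, its neighbour on chromosome 5, rose 1.95-fold to 149 ± 7.36 CPM in HCT116oxR, against 76.4 ± 6.69 CPM in parental cells (adjusted p = 1.26e-06).

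Of the miRNAs described for MET, miR-449a fell to 6.39 ± 0.672 CPM in HCT116oxR, against 10.9 ± 1.86 CPM in parental cells (adjusted p = 0.00230). miR-34a-5p was at 271 ± 9.66 CPM in HCT116oxR and 319 ± 5.32 CPM in parental cells (-0.23 ± 0.06, adjusted p = 0.00478), a call lost without HCT116oxR replicate 2 (-0.18), and miR-34c-5p was at 17.5 ± 1.52 CPM in HCT116oxR and 13.0 ± 0.452 CPM in parental cells (0.42 ± 0.12, adjusted p = 0.0126). miR-200a-3p rose 1.37-fold to 8129 ± 421 CPM in HCT116oxR, against 5925 ± 118 CPM in parental cells (adjusted p = 1.12e-05), while miR-141-3p, of the same seed, fell 1.19-fold (adjusted p = 0.00290). miR-7-5p, described for IGF1R and among the most abundant of the list, was at 36724 ± 4434 CPM in HCT116oxR and 33534 ± 728 CPM in parental cells (0.13 ± 0.07, adjusted p = 0.162), and passed the threshold without HCT116oxR replicate 1 (0.22) and with no filter (0.16). No target site was examined, and a relation between these miRNAs and the receptors was not tested.

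**Figure D4:**
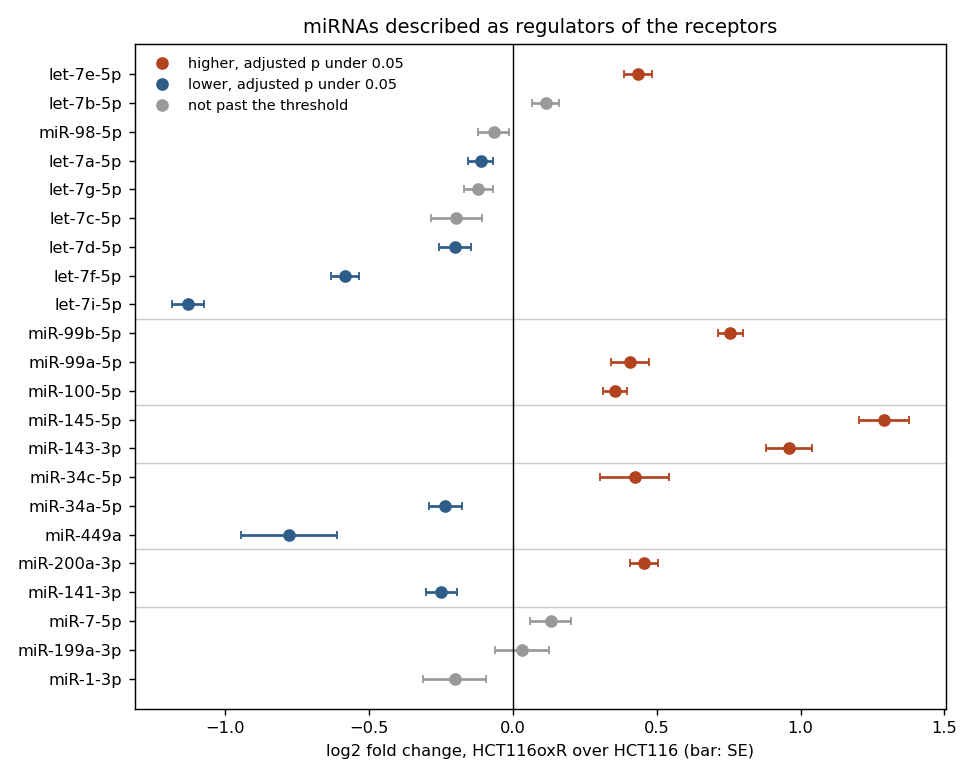
Log2 fold change of HCT116oxR over parental cells (x axis, bars are SE) for the 22 tested miRNAs described as regulators of the receptors, with grey lines between groups. The top group holds the let-7 seed, from 0.44 for let-7e-5p to -1.13 for let-7i-5p, and the group under it the miR-99 seed, all higher.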

How the data were processed

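Raw counts per gene and per mature miRNA were deposited by the authors. Reads had been aligned to GRCh38 with HISAT2 (total RNA) and BWA (small RNA), per the submitters' processing notes; no source used here gives the versions, counting tool, annotation or strand use. Library totals ran from 11950069 to 13558077 in total RNA and from 16089595 to 18147051 in small RNA.

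HCT116oxR was compared with HCT116 by edgeR 4.0.16 (R 4.3.3), with 1 fit per kind of RNA over all features: filterByExpr (10 counts at median depth, 15 in all), TMM factors, robust quasi-likelihood F test, 2-sided, Benjamini-Hochberg adjusted, called at 0.05. Tested were 17511 genes and 975 miRNAs, with a common biological coefficient of variation of 4.77% and 12.4%. The procedure was tested on simulated data. SE was taken as the size of the log2 fold change divided by the root of F. CPM are TMM-scaled, except the sums of the marker lists, which were scaled by raw library totals. Intervals of fold changes come from that fit, and limits for 0 counts (3 counts) cover counting error only. Libraries of the same line differed by more than sampling noise (chi-square per degree of freedom 2.25 to 3.13 for total RNA, 26.1 to 86.1 for HCT116oxR small RNA and 6.34 to 11.9 for HCT116 small RNA) and were counted singly.

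The members, lists and tests were chosen with earlier results of these data known. From each list were named up to 4 called genes with the largest change (average log2 CPM of at least 0) and the 3 most abundant; of the miRNAs, those called whose average log2 CPM reached 3 and the 3 most abundant; others are marked. Positions, promoters and miRNAs came from RefSeq, GRCh38.p14. Alternatives were DESeq2 1.42.0, RLE and upper-quartile factors, no filter, a replicate block and leaving out each library. No transcript lengths were used, so levels were not compared between genes.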

Additional observations from a re-analysis of the deposited data

How the results depend on the processing

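All 10 receptors kept their direction and their side of the threshold under DESeq2, RLE or upper-quartile factors, no filter, the replicate block and without each library in turn, 110 comparisons in all. RET ranged from 1.66 to 1.79, IGF1R from 0.77 to 0.96 and MST1R from 0.02 to 0.12. The number of other receptor tyrosine kinases called, 14, was 9 in DESeq2 and 8 to 11 when 1 library was left out. The replicate block gave 7565 called genes, against 7721 without it, 405 called miRNAs, against 436, and 9 called receptors. It ended the calls of PTPN11 (0.07), EPHB4 (0.11) and let-7a-5p (-0.11) and no other named call. Deviations of same-numbered libraries of the 2 lines had correlations of 0.027, -0.061 and -0.043. Those of differently numbered libraries ran from -0.063 to 0.101. With 3 libraries of each line, these values cannot tell whether same-numbered samples were handled together. Of 803 values for 73 named genes and miRNAs, 740 kept direction and side, 49 lost the call and 3 gained it. The 11 that changed sign were of PROS1, NRTN, FGF2 and FGF18, which were called in no setting. NRTN stood at 0.019 with upper-quartile factors and 0.0021 with the replicate block, and at -0.185 to 0.219 when 1 library was left out. FGF2 stood at -0.0044 with the replicate block and at -0.330 to 0.187 when 1 library was left out, and FGF18 at -0.528 to 0.0927. PROS1 stood at -0.02 without HCT116oxR replicate 1 and at -0.01 without parental replicate 2 and ranged from -0.0213 to 0.0482 when 1 library was left out. The 5 family ratios kept their sign. The cause of these changes was not tested. Depth limited the genes at 0 or a few counts, among them GDNF, HGF, KLB and the GFRA genes.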
